A study of Mus musculus with 8 samples.

Results

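Sox4, Myb, Cd24a, St8sia6, Hdac9 and Kcnc1 were described in T cells sorted from mouse bone marrow. These 6 of the 32285 genes in the count matrices were selected by symbol, with their pattern in these cells known from earlier results of the same data, so their levels across cell types and their co-detection are given as a description without a test. Sox4 encodes an SRY-related transcription factor, Myb the transcription factor c-Myb, Cd24a the heat-stable antigen, St8sia6 a sialyltransferase, Hdac9 a class IIa histone deacetylase and Kcnc1 a voltage-gated potassium channel of the Kv3 family.

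T cells arise in the thymus from bone marrow progenitors, pass through stages without and then with both co-receptors, and leave as naive Cd4 or Cd8 T cells. Sox4 and Myb are active in blood progenitors and early thymocytes and are reduced as T cells mature, and heat-stable antigen is abundant on immature thymocytes and is lost on mature naive T cells. Recent thymic emigrants, the youngest T cells outside the thymus, retain part of this programme.

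The Runx1::Runx1t1 group of the study was Runx1Runx1t1/+; Mx1-Cre mice on C57BL/6, which carry the leukaemia fusion gene as a conditional knock-in, and it was set against a control group. The control mice are labelled WT, and the study's methods describe them as Runx1Runx1t1/+ littermates without Mx1-Cre. Both groups received Poly(I:C), which switches on Mx1-Cre through interferon in many cell types besides blood cells, and an age of the mice was not given in the sources used here. Each of the 2 libraries per group pooled 2 mice, enriched for T cells and sorted as living CD3+ cells without mCherry, the reporter of the fusion gene, so that the T cells of the Runx1::Runx1t1 group were those without fusion gene expression. In the text, 4 values in a row follow the order Runx1::Runx1t1 replicate 1, Runx1::Runx1t1 replicate 2, control replicate 1 and control replicate 2.

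A total of 53034 cells of 56649 barcodes were kept after filters and doublet removal, at 90958101 to 102883449 UMIs (unique molecular identifiers, 1 per captured RNA molecule) per library and a median of 6239 to 6368 UMIs per cell. The libraries shared 256 to 306 barcode sequences pairwise. The classes were Cd8 T cells (7086, 7771, 5409 and 5972 cells), Cd4 T cells (3612, 3070, 1555 and 1555 cells), co-receptor-negative T cells without a Cd4, Cd8a or Cd8b1 UMI (1413, 734, 3615 and 3310 cells) and Kit Cd34 progenitors with a UMI of both genes and no Cd3 UMI (160, 129, 34 and 253 cells). The Cd8 and Cd4 classes were clusters of cells made without the 6 genes. Control replicate 1 stood apart from the other 3 pools for several of the 6 genes, and results that rest on it are given with and without it.

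Sox4 is a gene of 1 exon at chr13:28948919-28953713 on the minus strand of GRCm38. In Cd8 T cells, 3.05%, 2.64%, 6.47% and 4.71% of cells had a Sox4 UMI, at 6.69, 5.39, 19.3 and 10.9 CPM (UMIs scaled to the total UMIs of the class in that pool). Both control pools lay above both Runx1::Runx1t1 pools, in a class where 56.7% of all genes had groups without overlap in CPM. In Cd4 T cells the share was 2.10%, 3.09%, 4.44% and 3.92%, and in co-receptor-negative T cells it was 1.56%, 2.04%, 2.02% and 2.51%. In Kit Cd34 progenitors, 81.2%, 90.7%, 94.1% and 96.0% of cells had a Sox4 UMI, at 319, 446, 431 and 497 CPM. The order from progenitors over Cd8 and Cd4 to co-receptor-negative T cells held for the mean shares. Cd8 T cells (4.22% ± 1.75, SD, n = 4) and Cd4 T cells (3.39% ± 1.02) did not differ beyond their spread. In mean CPM, Cd8 T cells (10.6) were not above Cd4 T cells (10.8). As a low reference, 0.783% of cells had a Sox4 UMI in the Cd8 cluster led by Gzma and Osgin1 with Pdcd1 and Lag3, at a median of 5829.5 UMIs per cell, against a median of 6567.5 UMIs over all Cd8 T cells.

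Myb, at chr10:21124935-21160984 on the minus strand, is needed at several steps of T cell development. In Cd8 T cells 12.9%, 11.1%, 16.5% and 9.86% of cells had a Myb UMI. Here the groups overlapped, with the highest and the lowest value both in the control group. The share was 5.32%, 7.26%, 7.46% and 5.72% in Cd4 T cells and 8.92%, 7.36%, 10.1% and 6.83% in co-receptor-negative T cells. Kit Cd34 progenitors had a Myb UMI in 91.9%, 93.0%, 97.1% and 90.5% of cells, at 372, 467, 299 and 249 CPM. Progenitors thus had Myb in nearly every cell of all 4 pools.

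Cd24a, at chr10:43578284-43584265 on the plus strand, was rare in T cells. The share of Cd8 T cells with a Cd24a UMI was 1.55%, 1.39%, 2.77% and 1.64%, that of Cd4 T cells 0.803%, 1.27%, 1.93% and 1.93%, and that of co-receptor-negative T cells 0.920%, 0.545%, 0.830% and 1.33%. Among Kit Cd34 progenitors it was 39.4%, 42.6%, 61.8% and 89.3%, a spread of 58.3% ± 22.9 (SD, n = 4) that was wider than for Sox4 and Myb. The progenitors themselves differed between pools. The summed level of the 11 progenitor markers (among them Kit, Cd34, Gata2, Cpa3 and Mpo) was 17224, 16076, 5647 and 4494 CPM, with all 11 detected in each pool, and its part in the Cd24a difference was not tested.

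Progenitors were deeper than T cells, at a median of 11077 to 14738 UMIs per cell against 6334 to 6970 in Cd8 T cells, and they lack Cd3 UMIs by the rule that chose them, although the sort was for CD3+ cells. After each cell was thinned to 2000 UMIs, Sox4 was found in 41.8%, 61.3%, 58.8% and 63.2% of progenitors and in 1.18%, 1.13%, 3.24% and 2.10% of Cd8 T cells. Myb was found in 52.3%, 54.0%, 50% and 37.2% of progenitors and in 4.82%, 4.25%, 7.78% and 4.37% of Cd8 T cells. Cd24a was found in 16.3%, 17.7%, 23.5% and 47.6% of progenitors and in 0.583%, 0.511%, 1.25% and 0.513% of Cd8 T cells. Every pool thus kept the same direction for these 3 genes at even depth.

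St8sia6, at chr2:13651021-13794064 on the minus strand, adds sialic acid to existing sialic acid residues of surface sugars. In Cd8 T cells 0.776%, 2.10%, 11.6% and 0.670% of cells had a St8sia6 UMI. The value of control replicate 1 stood far above the other 3 pools, while control replicate 2 was the lowest. Control replicate 1 was also the highest pool in 9 of the 10 Cd8 clusters. In Cd4 T cells the gene was found in 6.64%, 7.62%, 14.5% and 8.36% of cells, in co-receptor-negative T cells in 0.354%, 0.954%, 3.07% and 0.332%, and in Kit Cd34 progenitors in 1.88%, 6.98%, 0% and 0%. Cd4 T cells had the highest share of the 4 classes in every pool. By the floor of 3 counts, the 2 values of 0 allow shares of up to 8.82% of the 34 cells and 1.19% of the 253 cells, and the plotted 95% Wilson intervals end at 10.2% and 1.5%.

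Hdac9, at chr12:34047580-34917095 on the minus strand, was found in 0.903%, 0.643%, 2.64% and 0.787% of Cd8 T cells, in 0.498%, 0.651%, 1.48% and 1.16% of Cd4 T cells and in 0.425%, 0.409%, 0.581% and 0.423% of co-receptor-negative T cells. Class IIa histone deacetylases act with MEF2 factors and move out of the nucleus on signalling. Kit Cd34 progenitors had a Hdac9 UMI in 2.5%, 3.88%, 5.88% and 3.56% of cells, which rests on 4, 5, 2 and 9 cells. Genes on the other strand overlap Sox4 (Gm26735), Myb (Gm26577), St8sia6 (Gm37126) and Hdac9 (Gm24429), and Gm18025, Gm47357 and 4921508M14Rik overlap Hdac9 on its own strand, so reads of these pairs may be uncertain.

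Kcnc1, at chr7:46396497-46438704 on the plus strand, was found in 5.88%, 3.67%, 7.17% and 5.04% of Cd8 T cells, in 0.388%, 0.651%, 0.579% and 0.707% of Cd4 T cells and in 2.62%, 4.77%, 1.63% and 1.81% of co-receptor-negative T cells. All 4 pools had a higher share in Cd8 than in Cd4 T cells, whereas Runx1::Runx1t1 replicate 2 had a higher share in co-receptor-negative than in Cd8 T cells. A single cell among the 576 Kit Cd34 progenitors had a Kcnc1 UMI.

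**Figure D1:**
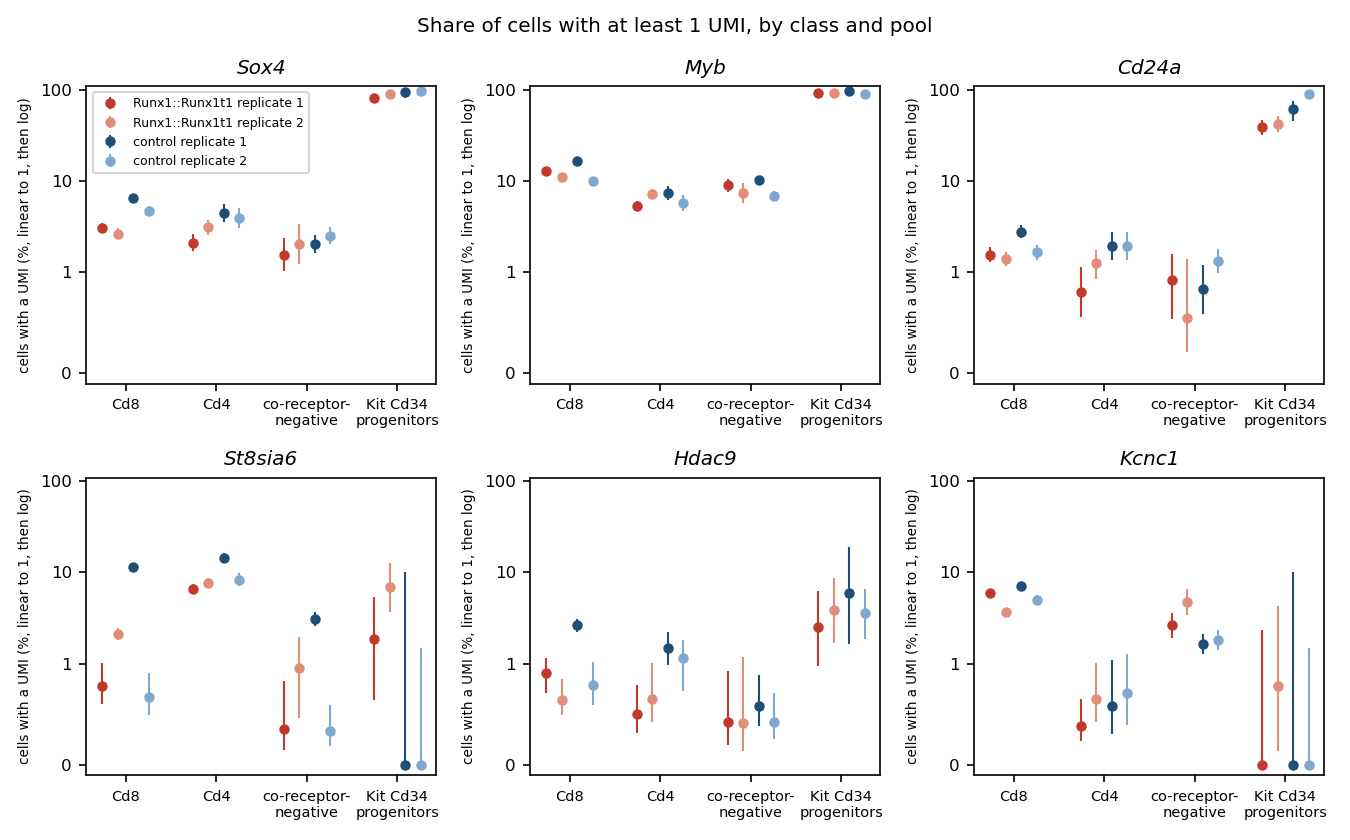
Share of cells with at least 1 UMI (y axis, percent, linear to 1 and logarithmic above) of each gene in the 4 classes (x axis). Points are the 4 pools and bars are 95% Wilson intervals, which cover counting error only. Sox4, Myb and Cd24a are highest in Kit Cd34 progenitors in every pool, Kcnc1 is higher in Cd8 than in Cd4 T cells in every pool, and St8sia6 in Cd8 T cells is high in control replicate 1 alone.

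The upstream 250 bases of Sox4 and of Hdac9 are shown because these genes had the highest odds ratio of co-detection in Cd8 T cells at even depth (26.4 over the pools). At full depth it was 17.8, below 21.0 for Myb and Hdac9. They are RefSeq sequence of GRCm38.p6, written 5′ to 3′ on the gene's strand, with searched motifs in capitals. The Sox4 window is chr13:28953700-28953949 (minus strand), whose last bases lie inside the annotated gene, and the Hdac9 window is chr12:34917096-34917345 (minus strand).
Sox4: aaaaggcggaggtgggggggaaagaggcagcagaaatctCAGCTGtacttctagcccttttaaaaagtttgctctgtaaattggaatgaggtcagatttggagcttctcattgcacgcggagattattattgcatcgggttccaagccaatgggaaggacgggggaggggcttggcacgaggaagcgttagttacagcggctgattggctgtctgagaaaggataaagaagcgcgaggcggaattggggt
Hdac9: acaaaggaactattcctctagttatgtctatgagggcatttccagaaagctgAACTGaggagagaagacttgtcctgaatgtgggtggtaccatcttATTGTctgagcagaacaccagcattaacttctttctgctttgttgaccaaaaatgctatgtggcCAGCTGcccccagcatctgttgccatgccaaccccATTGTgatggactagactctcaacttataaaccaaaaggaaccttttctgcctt

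The letters searched on both strands were TGTGGT (a core of the Runx motif), AACTG (Myb), ACAAT (Sox) and CAGCTG (an E-box), and no matches overlapped one another in the printed windows. The Sox4 window held CAGCTG once, at position -211 from the RefSeq start. The Hdac9 window held AACTG once, CAGCTG once and ACAAT at 2 places, seen as ATTGT on the printed strand. Of all 32851 RefSeq windows of this length, 14% held TGTGGT, 39.1% AACTG, 27.7% ACAAT and 13% CAGCTG. Windows were matched for 5 of the 6 genes, all except Cd24a, with a second window for Hdac9 that is not printed, and TGTGGT was in none of them. The printed windows of Sox4 and Hdac9 had a GC content of 50.8% and 44.4%, beside a median of 52.4% over all windows and 81.2% in the Myb window. A match is a description of these letters and not a binding site.

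The label of immature T cell genes was compared with the data. Within Cd8 T cells, Rag1, Rag2 and Ptcra, which mark developing thymocytes, had 3, 1 and 8 UMIs in all 26238 cells together. They were the lowest of a list of 20 thymocyte genes. The others ranged from 32 UMIs for Arpp21 to 38316 for Satb1, with 386 for Dntt and 2496 for Ccr9. The 1750 cells with UMIs of both co-receptors, the phenotype of the main thymocyte stage, had a Sox4 UMI in 3.55%, 3.60%, 3.96% and 5.80% of cells. These shares were close to those of Cd8 T cells, although the cells with both were deeper (median 7634.5 UMIs). Sox4, Myb and Cd24a were thus highest in progenitors in every pool, St8sia6 was highest in Cd4 T cells in every pool, and Kcnc1 was at or near 0 in progenitors.

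Within Cd8 T cells the 6 genes met in 1 cluster. This cluster, led by Ift80, Trdc, Dapl1, H2-Ob and Smc4, with Tcf7, Id3 and Ccr7 also among its 10 leading genes, had the highest Myb share of the Cd8 clusters and was picked for that, so its levels are a description. It held 250, 252, 422 and 276 cells, 4.57% of all Cd8 T cells. It contained 41.9% of the Sox4 UMIs of Cd8 T cells, 34.6% of the Myb UMIs, 27.3% of the Cd24a UMIs, 23.5% of the St8sia6 UMIs, 75.3% of the Hdac9 UMIs and 23.4% of the Kcnc1 UMIs. It was barely a Cd8 cluster, since 53.1% of its cells had a Cd8a or Cd8b1 UMI against a class limit of 50%, and 30.7% had a UMI of Trdc, the constant region of the T cell receptor delta chain.

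In this cluster Sox4 was found in 21.2%, 23.4%, 30.6% and 27.5% of cells. Myb was found in 68.0%, 65.9%, 67.3% and 49.3% of cells. Hdac9 was found in 19.2%, 11.9%, 24.2% and 12.0% of cells. Within the cluster both control pools had the higher Sox4 shares, whereas Hdac9 overlapped between the groups. Over all Cd8 T cells 56.7% of genes had groups without overlap in CPM, and no such share was computed within the cluster. St8sia6 again followed control replicate 1, with 6.80%, 16.7%, 29.9% and 4.71%. Kcnc1 varied little, with 23.2%, 20.6%, 26.3% and 19.2%.

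Sox4 also varied inside the cluster. Its 619 cells with a Cd8 and no Cd4 UMI had a Sox4 UMI in 15.2% of cells, its 513 cells without any co-receptor UMI in 37.2%, and its 355 cells with a Trdc UMI and no paired T cell receptor in 38.0%. Its 633 cells with a paired TRA and TRB chain had one in 21.2%, and its 50 cells with a Cd4 and no Cd8 UMI in 56.0%. Myb was at 63.5%, 59.8%, 60.8%, 67.1% and 82.0% in the same order. Cells with a Cd8 UMI thus had the lowest Sox4 share of these sets, although they were deeper (median 6474 UMIs against 4583 in cells without a co-receptor UMI). Cells of gamma-delta receptor type may be among this cluster, and their part in the levels was not tested.

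Outside that cluster the shares were lower. Among the remaining Cd8 T cells Sox4 was found in 2.38%, 1.94%, 4.43% and 3.60% of cells, and Hdac9 in 0.234%, 0.266%, 0.822% and 0.246%. In the 2 Cd8 clusters led by Ccr7, Dapl1 and Lef1, genes of naive T cells, 4.66%, 3.74%, 4.92% and 4.87% of cells had a Sox4 UMI. The Cd8 cluster led by Gzma, S1pr5 and Cx3cr1, genes of terminal effector cells, had one in 1.08% of cells. Myb was found in 36.9% of cells of the Cd8 cluster led by Itm2a and Crtam, whose cells were deep (median 15628 UMIs), and in 10.2% after each cell was thinned to 2000 UMIs.

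A further cluster, also barely a Cd8 cluster, held all 6 genes. Of its cells, 53.6% had a Cd8a or Cd8b1 UMI, 75.4% a Cd3 UMI and 37.2% a paired receptor. It was led by Rras2, Lncpint and Slc25a36, had 1503 cells with a median of 2284 UMIs, and was second among the 10 Cd8 clusters for each of the 6 genes after thinning. Sox4 was then found in 3.69% of its cells, Myb in 14.9%, Cd24a in 1.85%, St8sia6 in 3.69%, Hdac9 in 1.60% and Kcnc1 in 3.08%. The cluster led by Ift80 and Trdc had 16.4%, 39.7%, 4.17%, 7.16%, 8.69% and 10.4% on the same scale, in the same order of genes. At full depth Sox4 was found in 3.81%, 5.17%, 7.66% and 6.12% of cells of the Rras2 cluster.

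Other clusters carried some genes of the set. The Cd4 cluster led by Ly6c1, Pdlim4 and Igfbp4, with Ccr7 and Lef1, had a Sox4 UMI in 11.3% of cells and a St8sia6 UMI in 19.9%. It also had Myb in 13.1% and Cd24a in 3.26% of cells. Each of these shares was the highest among the Cd4 clusters. The Cd4 cluster led by Foxp3, the regulator of regulatory T cells, had St8sia6 in 9.62% of cells and Sox4 in 0.875%. The cluster led by Il17a, Cd163l1 and Tcrg-V6 had Kcnc1 in 14.2% of cells (15%, 13%, 17.4% and 12.1% in the pools) and Sox4 in 1.08%. Kcnc1 thus had a high share there without Sox4 or Myb, which was found in 2.96%.

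**Figure D2:**
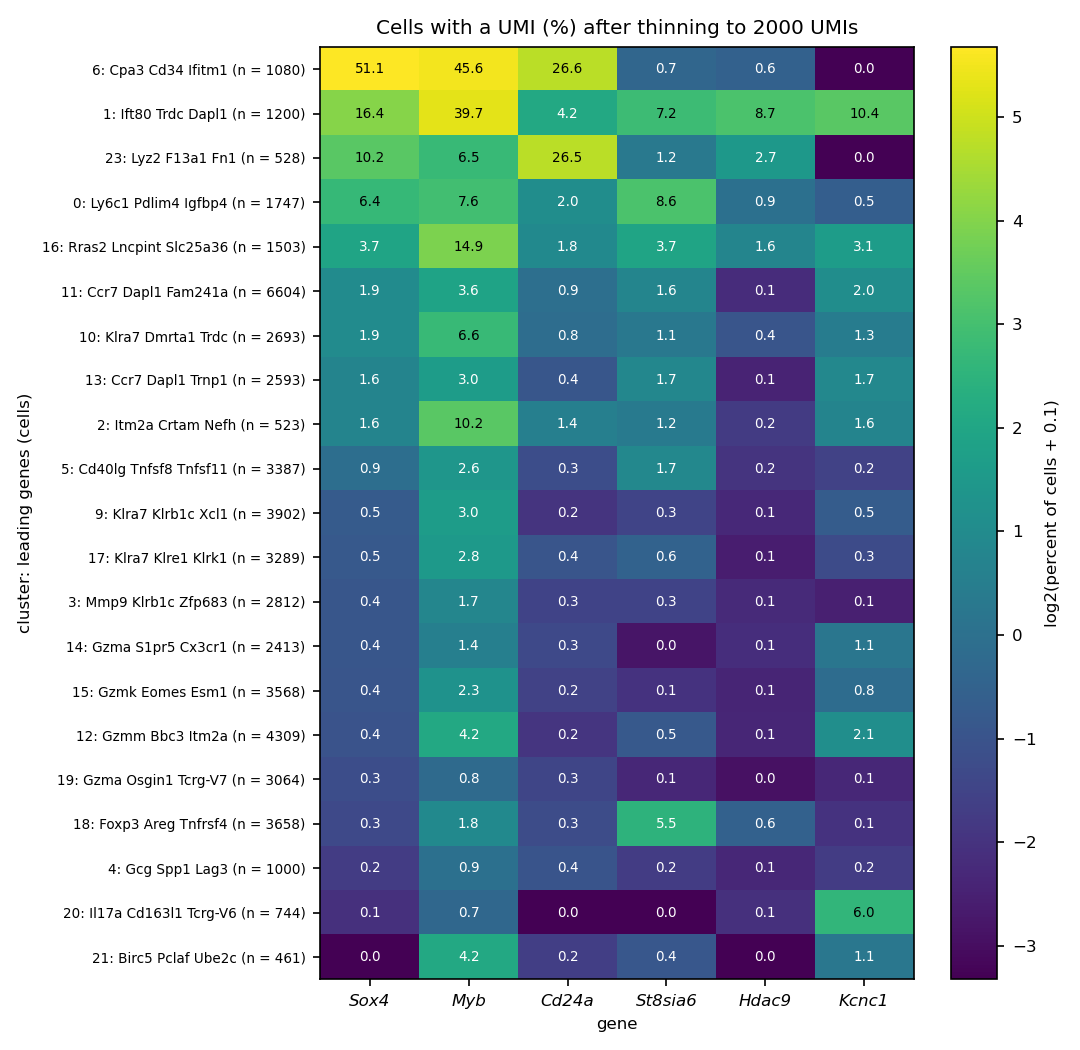
Share of cells with a UMI (numbers in the squares, percent) of the 6 genes (x axis) after every cell was thinned to 2000 UMIs, in the 21 clusters with a median of at least 2000 UMIs (y axis, first 3 leading genes and number of cells before thinning, ordered by Sox4). The colour scale is log2(percent + 0.1), and the cluster led by Ift80 and Trdc is the highest Cd8 cluster for all 6 genes, followed by the cluster led by Rras2 and Lncpint, beside the progenitor cluster led by Cpa3 and Cd34 for Sox4, Myb and Cd24a.

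Co-detection in the same cell was described in 24819 Cd8 T cells thinned to 2000 UMIs, so that deep cells do not carry more pairs. Sox4 and Hdac9 were found together in 48 cells, against 3.22 if the genes were independent within each pool, with odds ratios of 30.9, 27.2, 20.8 and 47.7. Sox4 and Cd24a were found together in 37 cells against 3.54, with odds ratios of 20, 35.4, 13.3 and 3.49. Sox4 and Myb were found together in 122 cells against 25.3, with odds ratios of 6.58, 9.68, 7.97 and 4.42. A Myb UMI was present in 24.1%, 28.6%, 36.8% and 16% of cells with Sox4, and in 4.59%, 3.97%, 6.81% and 4.12% of those without. The overlap with Sox4 was therefore found in each of the 4 pools for these 3 genes. Some pool values rest on few cells with both genes, down to 3 for Hdac9 and 2 for Cd24a. With all UMIs kept, the odds ratios with Sox4 were 14.1 to 29.7 for Hdac9 (21 to 64 cells per pool). Those for Cd24a were 5.15 to 13.3 (19 to 60 cells per pool). At full depth, the cluster led by Ift80 and Trdc held 70.1% of Cd8 T cells with Hdac9 and 30.1% of those with Sox4. A Cd8a or Cd8b1 UMI was present in 45.4% and 68.3% of them. The part of this cluster in the co-detection was not tested.

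All 15 pairs of the 6 genes had an odds ratio above 1 over the pools, and 11 had one above 1 in each pool. The other 4 pairs each had a pool without a cell with both genes. The lowest value was that of Cd24a and St8sia6, 1.95 over the pools, with 6 cells against 3.21. Pairs with St8sia6 rested largely on control replicate 1, which gave 32 of the 39 cells with Sox4 and St8sia6. In Cd4 T cells the odds ratios with Sox4 were 15.7 for Hdac9 (9 cells), 12.0 for Cd24a (10 cells) and 5.44 for Myb (21 cells) after thinning. At full depth they were 4.67 for Hdac9 (11 cells), 7.61 for Cd24a (25 cells) and 4.82 for Myb (70 cells), so no order among the 3 genes is read from Cd4 T cells.

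Cells with UMIs of at least 3 of the 6 genes were few. There were 14, 16, 67 and 15 such cells among thinned Cd8 T cells, 112 of 24819, and 63, 69, 189 and 45 at full depth, 366 of 26238. Control replicate 1 held more of them than the other 3 pools together in both counts. Most Cd8 T cells, 20636 of 26238, had a UMI of none of the 6 genes.

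**Figure D3:**
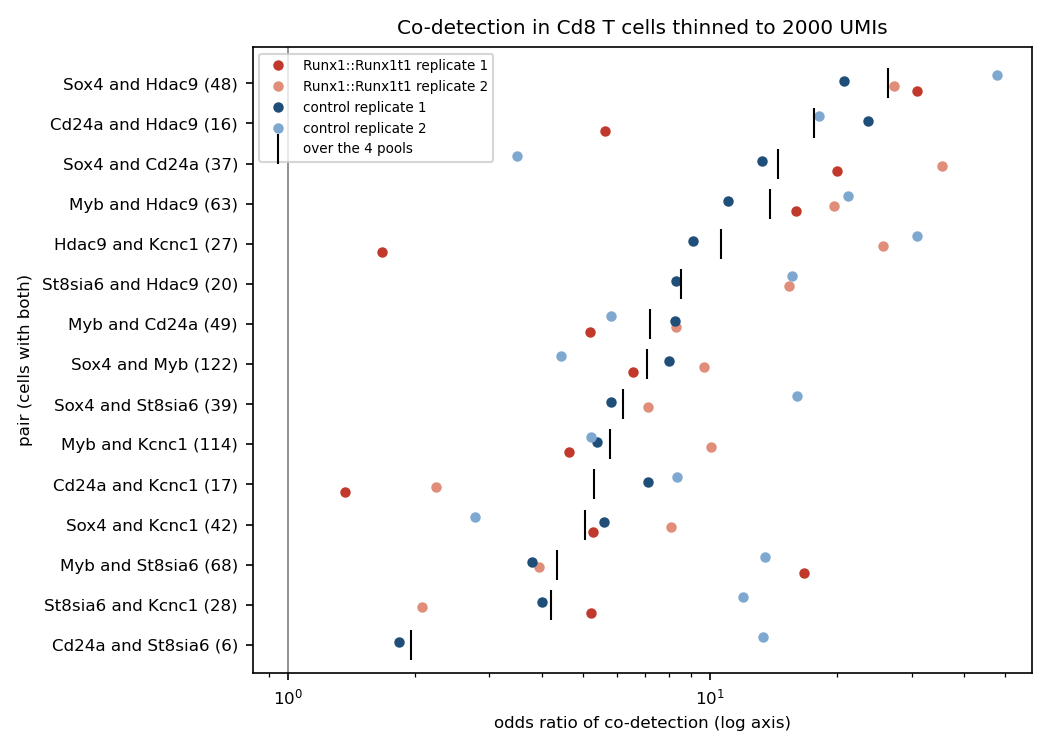
Odds ratio (x axis, log axis) of finding both genes of a pair in the same Cd8 T cell at 2000 UMIs, for the 15 pairs (y axis, with the number of cells with both). Points are pools, black bars the value over the 4 pools, and pools without a cell with both genes are not drawn. Every drawn point lies right of 1, with Sox4 and Hdac9 highest at 26.4.

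The genes most like Sox4 per cell were ranked by the lowest odds ratio of the 4 pools. This was done among 7214 genes found in at least 2% of thinned Cd8 T cells. That limit leaves out Hdac9, Cd24a, St8sia6 and Kcnc1. Here 0.5 was added to each count before the odds ratio was taken, so the values for Myb differ slightly from those above. Trdc came first, with odds ratios of 6.30 to 13.4 over the pools, and Myb second, with 4.51 to 9.78. Ift80, Trib1, Ramp1, Smc4, Rnf19a, Zbtb20, Marcksl1 and H2-Ob followed, the last at 2.07 to 4.21. Trdc, Ift80, Smc4 and H2-Ob are also leading genes of the cluster described above.

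Over the 16 sums of 4 pools and 4 classes, the genes with the level (log2 of CPM + 1) most like Sox4 were Cd24a (Pearson r = 0.994), Heatr5a, Dag1, Wdr12 and Il11ra1. Those most like Myb were Cep68, Ccnjl, Nfam1, Tcf7l2 and Emilin1, and those most like Cd24a were Sox4, Il11ra1, Fam110b, Mfsd12 and Brd7. The r with Sox4 was 0.962 for Myb, 0.574 for Hdac9, -0.221 for St8sia6 and -0.720 for Kcnc1. The 16 sums come from 4 libraries, and Sox4, Myb and Cd24a lay far higher in progenitors than in T cells. The part of this distance in each r was not tested. Per cell, by contrast, Kcnc1 and St8sia6 had odds ratios with Sox4 above 1 (5.06 and 6.20 over the pools).

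The group comparison asked how the T cells of the Runx1::Runx1t1 group differed from those of the control group. Counts were summed per pool and class and tested with edgeR's quasi-likelihood test, with Benjamini-Hochberg adjustment over all genes tested. Nothing in the sources says more of how the pools of a group differ than that they are separate pools, so the p-values measure the spread between these pools. A sum of counts can be lower because fewer cells have the RNA or because each cell has less, which is why shares of cells are given beside it.

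In Cd4 T cells, Sox4 and Hdac9 fell in the Runx1::Runx1t1 group. Sox4 was at 6.71, 7.77, 16.4 and 12.1 CPM, without overlap of the groups, a log2 fold change of -0.96 ± 0.18 (SE, adjusted p = 0.0413, edgeR). Hdac9 was at 1.31, 1.25, 4.98 and 3.61 CPM, also without overlap, a log2 fold change of -1.71 ± 0.30 (adjusted p = 0.0347, edgeR). Its values rest on few cells, 18, 20, 23 and 18 with a Hdac9 UMI. The test called 2.54% of the 11731 genes, and 51.7% of them had groups without overlap in CPM. Without control replicate 1 the log2 fold changes were -0.75 for Sox4 and -1.50 for Hdac9 and neither passed (adjusted p = 0.103 and 0.117, edgeR), in a fit where the lone control pool is assumed to vary like the pools of the other group. Over all 4 fits without 1 pool the values ranged from -1.13 to -0.75 and from -1.90 to -1.50. The calls were also lost without a filter on low counts (0.165 and 0.134), at a coarser clustering (0.155 and 0.073) and in cells with a paired receptor (0.119 and 0.067), with the direction kept each time.

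St8sia6 and Cd24a in Cd4 T cells did not pass the test. St8sia6 was at 14.8, 15.8, 41.2 and 22.3 CPM, a log2 fold change of -1.03 ± 0.23 (adjusted p = 0.0666, edgeR). Cd24a was at 2.41, 2.83, 7.74 and 4.58 CPM, a log2 fold change of -1.21 ± 0.29 (adjusted p = 0.0800, edgeR). The groups did not overlap for either gene, so 4 of the 6 genes were without overlap, beside 51.7% of all genes. Myb had a log2 fold change of -0.19 ± 0.16 and Kcnc1 of -0.29 ± 0.42, with overlapping groups. The Cd4 cluster led by Ly6c1, Pdlim4 and Igfbp4, picked here for the highest Sox4 share among Cd4 clusters, made up 14.8%, 18.1%, 21.1% and 21.1% of Cd4 T cells, and within it Sox4 was found in 9.53%, 11.3%, 14.9% and 10.4% of cells. Its part in the difference was not tested.

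In Cd8 T cells none of the 6 genes passed the test, which called 0.0924% of the 12988 genes. Sox4 had a log2 fold change of -1.38 ± 0.29 (adjusted p = 0.0890, edgeR). The share of cells with Sox4 averaged 2.84% ± 0.290 over the Runx1::Runx1t1 pools and 5.59% ± 1.25 over the control pools (SD, n = 2 each). The groups did not overlap, and the two-sided exact permutation p of 0.333 is the smallest that 2 pools against 2 can give. Cd24a did not overlap either (log2 fold change -0.81 ± 0.36, adjusted p = 0.243, edgeR, and -0.21 without control replicate 1), which makes 2 of the 6 genes beside 56.7% of all genes without overlap in CPM. DESeq2 called Sox4 (adjusted p = 2.5e-04), as did edgeR without the filter on low counts (0.00665). Both of these settings also called many more genes in all than the main fit, with the counts given below. In the fits without 1 pool, the log2 fold change of Sox4 ranged from -1.73 to -0.93, the latter without control replicate 1.

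The make-up of the Cd8 class moved with the groups. The 2 clusters led by Ccr7, Dapl1 and Lef1 held 29.7%, 19.3%, 53.0% and 45.7% of Cd8 T cells, and the cluster led by Ift80 and Trdc held 3.53%, 3.24%, 7.80% and 4.62%. Within the first 2 clusters, the log2 fold change of Sox4 was -0.37 (adjusted p = 0.25, edgeR). There the direction turned for Myb, with 10.7%, 11.8%, 8.83% and 6.52% of cells and a log2 fold change of 0.41. It turned for Cd24a as well, with 2.38%, 2.21%, 2.16% and 1.76% of cells and a log2 fold change of 0.24. Over all Cd8 T cells Myb had a log2 fold change of -0.50 ± 0.31 (adjusted p = 0.371, edgeR).

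St8sia6, Hdac9 and Kcnc1 in Cd8 T cells depended on single pools. The log2 fold change of St8sia6 was -2.53 ± 1.24 (adjusted p = 0.283, edgeR) with all pools and 0.95 without control replicate 1. Hdac9 (log2 fold change -1.59 ± 0.67, adjusted p = 0.232, edgeR) and Kcnc1 (-0.66 ± 0.32, adjusted p = 0.280, edgeR) had overlapping groups. Without control replicate 1 they were at -0.24 and -0.30, and without Runx1::Runx1t1 replicate 1 Kcnc1 was at -1.10.

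In co-receptor-negative T cells the test called 4% of the 11613 genes and none of the 6. Kcnc1 was at 4.25, 8.28, 3.43 and 3.53 CPM, higher in both Runx1::Runx1t1 pools, with a log2 fold change of 0.70 ± 0.30 (adjusted p = 0.254, edgeR). It was the only one of the 18 pairs of a gene and a class with a fitted value above 0, although Myb in these cells, at -0.03, turned to 0.0333 without TMM factors. Sox4 was at 2.55, 3.94, 5.11 and 5.11 CPM, with a log2 fold change of -0.79 ± 0.26 (adjusted p = 0.149, edgeR). With Cd24a, 3 of the 6 genes had groups without overlap in CPM, beside 50.3% of all genes. The test of a difference in the group effect between classes, added after the data were seen, passed for no gene of the 6, and its nearest value was that of Kcnc1 between co-receptor-negative and Cd8 T cells (difference of log2 fold changes 1.31 ± 0.52, adjusted p = 0.29, edgeR).

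T cell receptor sequences gave a readout that was not used by the rule that chose the genes. The genes were chosen with their pattern over these cells known, so the readout is not independent of that pattern. The same difference is not given here for other genes, so it is not read as particular to these 6. A clonotype was the pair of TRA and TRB junction sequences of a cell, and it was called expanded when found in at least 2 cells of a pool. Among Cd8 T cells with a paired receptor and a Sox4 UMI, 8.45%, 18.5%, 3.74% and 5.68% belonged to an expanded clonotype. Among those without a Sox4 UMI, 31.3%, 51.3%, 9.95% and 19.0% did. Cells with Sox4 were lower in 4 of 4 pools, by a mean of 18.8 percentage points (SD 11.5), and the two-sided exact sign-flip p over pools of 0.125 is the smallest that 4 pools allow.

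The other 5 genes gave the same direction in each pool. Cells with Myb belonged to an expanded clonotype in 8.62%, 12.1%, 6.80% and 7.49% of cases, against 33.9%, 54.9%, 10.2% and 19.6% of cells without. The mean difference was -20.9 percentage points for Myb, -16.4 for Cd24a, -22.1 for St8sia6, -17.0 for Hdac9 and -21.2 for Kcnc1, each with the exact p of 0.125. The differences rest on few cells for some genes, such as 22 to 75 paired cells with Hdac9 per pool. The pools differed more in cells without the genes than in cells with them.

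**Figure D4:**
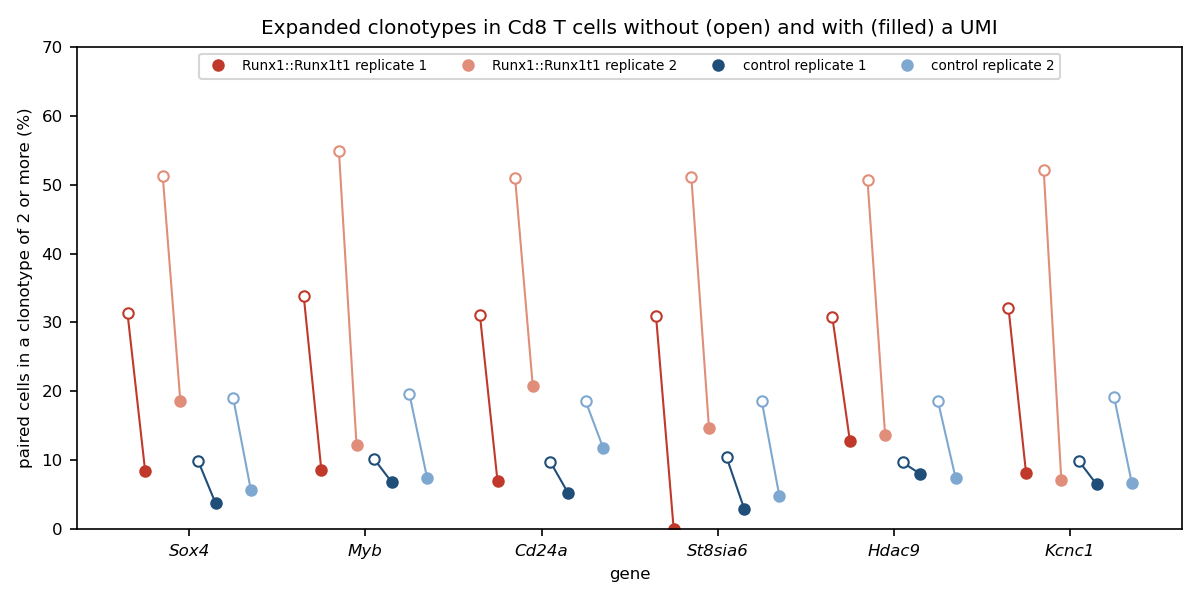
Share of paired Cd8 T cells in a clonotype of 2 or more cells (y axis, percent) without (open points) and with (filled points) a UMI of each gene (x axis), in the 4 pools. Lines join the 2 values of a pool, and all 24 lines run down, from 51.3% to 18.5% for Sox4 in Runx1::Runx1t1 replicate 2.

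Cells with Sox4 also differed in which receptor was found. Over the 4 pools a paired receptor was present in 59.8% of Cd8 T cells with Sox4 and in 74.7% of those without, a Trdc UMI in 21.0% and 3.68%, and a Cd8a or Cd8b1 UMI in 68.3% and 88.2%. The direction was the same in each pool for the paired receptor, with 65.7%, 60.5%, 53.4% and 62.6% of cells with Sox4 against 76.5%, 74.8%, 71.3% and 75.4% without. The median depth was 6078.5 UMIs with Sox4 and 6588 without.

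To describe what Sox4-positive Cd8 T cells express, counts were summed per pool over the 1052 cells with a Sox4 UMI and the 25186 without, and compared in edgeR with the pool as a block. The other 5 genes of the set are given without a test. Hdac9 was higher by 4.50 on the log2 scale in Sox4-positive cells, Cd24a by 3.25, Myb by 2.22, St8sia6 by 1.84 and Kcnc1 by 1.71. Of 12454 genes, 5.6% were called, 323 higher and 374 lower. Without scaling by TMM factors, 68.9% of the called genes were higher, against 46.4% with them.

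The called genes outside the set with the largest rise were Ptprm, a receptor tyrosine phosphatase, at 5.83 ± 4.03 CPM against 0.368 ± 0.383 (SD, n = 4 pools, log2 fold change 3.99 ± 0.48, adjusted p = 5.87e-06, edgeR), and Ly6d, a surface antigen of early lymphoid cells, at 12.7 ± 13.3 CPM against 0.661 ± 0.121 (log2 fold change 3.89 ± 0.51). Tubb2b, Plxdc2, Nrgn, Mctp1 and Cldn10 followed with log2 fold changes of 3.22, 2.95, 2.86, 2.79 and 2.77. Trdv5, a variable segment of the T cell receptor delta chain, rose by 2.60 ± 0.13, from 8.21 ± 2.68 to 52.2 ± 13.9 CPM. Each of these 8 genes was higher in 4 of 4 pools, which the rule for naming genes required.

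Among the genes with the largest fall, Klra8, the natural killer receptor Ly49H, had 0 UMIs in Sox4-positive cells and 475 in the others. With a floor of 3 counts over the Sox4-positive sums, it was at least 6.36-fold lower. Nap1l3 likewise had 0 UMIs against 309, at least 4.14-fold lower, and its fitted direction turned when cells were classed by their own UMIs. Klra5 and Cd200r2, a natural killer receptor and a receptor for Cd200, had log2 fold changes of -2.73 ± 0.80 and -2.38 ± 0.36. Klra5 rests on 2 UMIs in Sox4-positive cells, both in 1 pool, was not called when any 1 pool was left out, and ranged from -7.41 (without control replicate 2) to -2.43. Cd200r2 was not called without Runx1::Runx1t1 replicate 2 (adjusted p = 0.283, edgeR). Rln3, Mt3, Plekhf1, Tmem273, Gm35037 and Cd22 were at -2.70, -2.38, -2.37, -2.21, -2.03 and -1.96. They rest on 3, 3, 3, 6, 7 and 5 UMIs in Sox4-positive cells, those of Tmem273 all in 1 pool. The level of Cd200r2 without Sox4 ranged from 0.0790 to 32.3 CPM over the pools.

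Of the thymocyte list, 5 of 17 tested genes rose in Sox4-positive cells and none fell. Arpp21 (log2 fold change 3.47 ± 0.85), a thymocyte RNA-binding protein that rests on 32 UMIs, led them. Ikzf2, the transcription factor Helios, rose by 1.34 ± 0.15 and Ccr9, a chemokine receptor of thymocytes and recent emigrants, by 0.77 ± 0.17. Itm2a and Tcf12 rose by 0.46 ± 0.10 and 0.33 ± 0.08. Dntt, the enzyme that adds bases at receptor junctions, was at 1.17 ± 0.36 (adjusted p = 0.0597, edgeR), and Notch1 at -0.28 ± 0.09. The median over the list was 0.36, beside -0.01 over all genes.

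Most naive and egress genes were higher in Sox4-positive cells. Of 12 tested genes 8 rose, among them Tcf7 (0.59 ± 0.08), a factor of naive and stem-like T cells, S1pr1 (0.45 ± 0.08), the receptor for leaving lymphoid organs, Ccr7 (0.42 ± 0.10) and Bach2 (0.40 ± 0.08). Il7r, the receptor for interleukin 7, fell by 0.31 on the log2 scale. The median was 0.31.

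Peripheral maturation genes, which rise as young T cells mature outside the thymus, were mostly lower. Of 10 tested genes 7 fell, among them Cxcr3 (-0.76 ± 0.11), Il2rb (-0.61 ± 0.06), Cd44 (-0.57 ± 0.10) and Ly6c2 (-0.49 ± 0.06). Ly6c1 rose by 1.20 ± 0.28, against the direction of its list. The median was -0.37.

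Effector genes fell in Sox4-positive cells in 12 of 13 cases, with a median of -1.17. Cx3cr1 (-1.51 ± 0.36) marks terminal effector cells, Gzmb (-1.48 ± 0.15) and Gzma (-1.41 ± 0.21) are granzymes, and Ccl5 (-1.48 ± 0.08) is a chemokine of memory and effector cells. Eomes did not pass (0.20 ± 0.10, adjusted p = 0.319, edgeR). None of 10 cell cycle genes was called (median -0.17).

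The list counts were recomputed for other choices of cells. Without the cluster led by Ift80 and Trdc, 5 thymocyte and 8 naive and egress genes rose, and 8 maturation and 12 effector genes fell. In cells with a paired receptor the counts were 3, 9, 7 and 11, in the same order. With Cd8 T cells taken by the UMIs of each cell instead of clusters, only 1 naive and egress gene rose and 1 fell, 6 thymocyte genes rose and 4 fell, and 5 cycle genes rose. With Sox4 read after thinning to 2000 UMIs, 8 cycle genes fell. Without the pool as a block, 1 effector gene and no other gene of these lists was called.

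**Figure D5:**
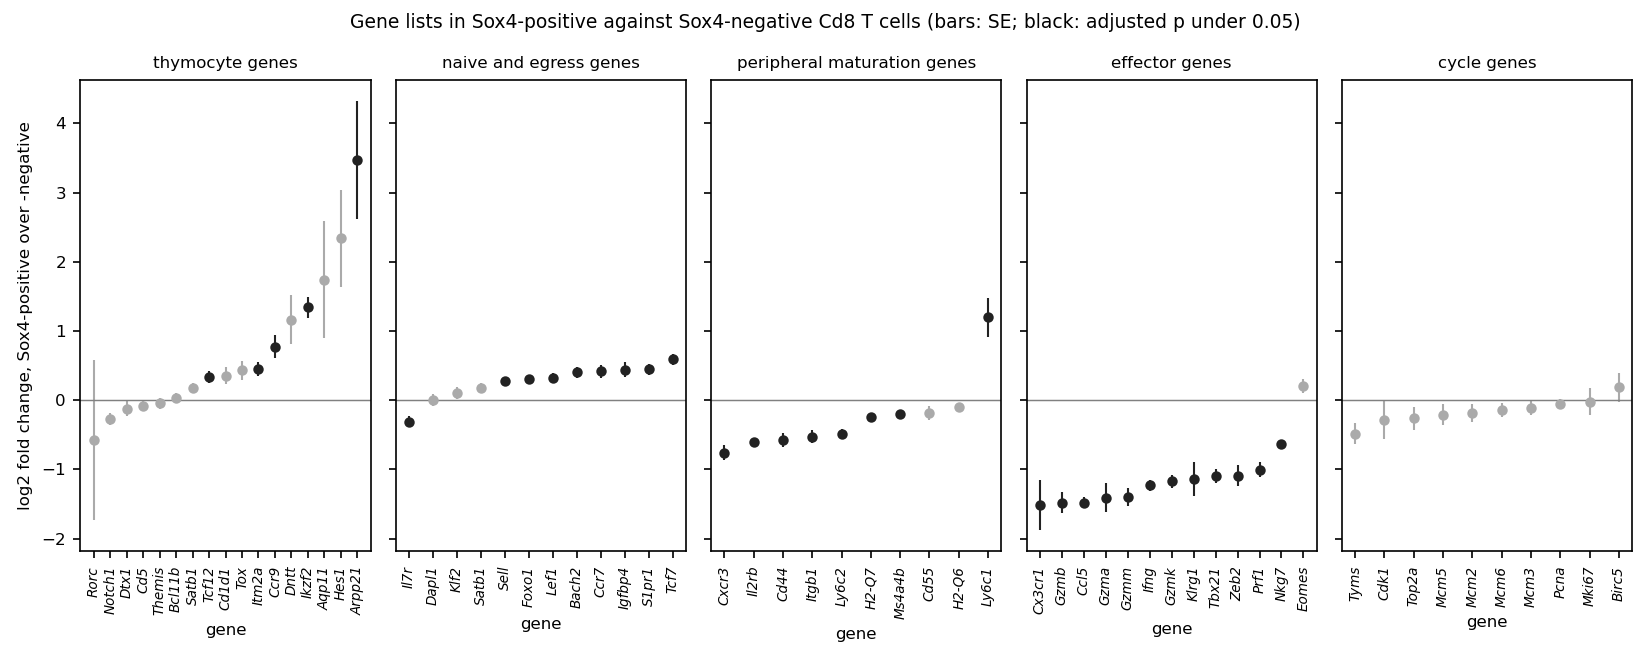
Log2 fold change of Sox4-positive over Sox4-negative Cd8 T cells (y axis) for the genes of 5 lists (x axis), with bars of 1 SE and black points for an adjusted p under 0.05 (edgeR). Effector genes lie below 0 apart from Eomes, and most naive and egress genes lie above 0.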

How the data were processed

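The 6 genes, the gene lists and the tests were chosen with earlier results of these data known. Each of 4 pools gave a 10x 5′ gene expression library and a T cell receptor library. Reads were counted by the authors with Cell Ranger 6.1.2 against GRCm38, and the deposited values are unnormalized UMI counts per called cell. The annotation release is not given in the sources used here. The authors' deposited contig tables hold the UMI count of each TRA and TRB contig. Groups came from the sample labels.

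Barcodes with fewer than 200 genes (17) or over 15% mitochondrial UMIs (796) were removed. Doublets were scored with Scrublet at an expected rate of 0.05. Its automatic threshold was used in the library where it marked at least 0.5% (4.22%), and in the other 3 libraries the barcodes with the highest scores were removed (5.22%, 5.32% and 5.39% of each). Cells were clustered in scanpy 1.11.5 (4000 variable genes without the 6 genes and without receptor genes, 50 components, batch-balanced graph, Leiden resolution 2), giving 24 clusters. Clusters in which more than 50% of cells had a UMI of a co-receptor, and of Cd3, were assigned to Cd8 or Cd4 T cells. Other cells of clusters with Cd3 that lacked any co-receptor UMI and had a Cd3 UMI were co-receptor-negative. Clusters are called by their leading genes.

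CPM is a gene's summed UMIs scaled to the total UMIs of the class in a pool. Shares have 95% Wilson intervals that, like floors of 3 counts, cover counting error only. For co-detection each cell was thinned to 2000 UMIs, and shallower cells (929 to 1126 per pool) were left out. Summed counts were tested with edgeR 4.0.16 (TMM, filterByExpr, quasi-likelihood, Benjamini-Hochberg adjustment, called at 0.05) in R 4.3.3, with DESeq2 1.42.0 as an alternative, after the scripts were tested on simulated data. Shares were compared with exact permutation tests over pools.

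Genes named from the Sox4 comparison were the 10 called genes with the largest rise and the 10 with the largest fall with 1 direction in all 4 pools and at least 100 UMIs. Gene positions are of GRCm38. Alternatives were other scaling, no filter, leaving out a pool, other classes of cells and a replicate block.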

Additional observations from a re-analysis of the deposited data

How the results depend on the processing

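With 2 pools per group, the counts of called genes moved with nearly every choice, while of the recomputed summary values (shares, counts of calls, the expanded share and the odds ratio of Sox4 and Cd24a) 90 kept their direction and size, 32 moved and 9 reversed. Of the values for single genes, 442 kept direction and call, 88 lost the call, 21 gained it and 19 reversed. Depth limits values that rest on few cells, such as Hdac9 in progenitors and St8sia6 in 2 pools of Cd8 T cells (40 and 55 cells). The causes of the changes below were not tested.

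The 12 calls between groups in Cd8 T cells became 975 with DESeq2, 167 without TMM factors, 1121 without the filter on low counts, 1224 with the replicate block, 340 at resolution 1, 2 in cells with a paired receptor, 368 in the clusters led by Ccr7, Dapl1 and Lef1, 33 in the cluster led by Ift80 and 4 without it. The 298 calls in Cd4 T cells became 5 without the filter, 190 with the replicate block and 138 at resolution 1. The 465 calls in co-receptor-negative T cells became 1131 without the filter, 1610 with the replicate block and 817 with classes from the UMIs of each cell. The 697 calls of the Sox4 comparison became 454 with DESeq2, 56 with no replicate block, 2587 with classes from UMIs, 1139 with Sox4 read after thinning, 388 without the cluster led by Ift80 and 451 in cells with a paired receptor.

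Leaving out each pool in turn gave 0 to 2006 calls in Cd8 T cells (0 by edgeR without either control pool, with 1238 and 1983 genes at an unadjusted p under 0.05, 2006 without Runx1::Runx1t1 replicate 1), 335 to 709 in Cd4 T cells, 191 to 807 in co-receptor-negative T cells and 407 to 609 in the Sox4 comparison. The difference in share of Cd8 T cells (Runx1::Runx1t1 minus control, percentage points) ranged from -3.63 to -1.86 for Sox4, -4.46 to 2.17 for Myb, -1.30 to -0.170 for Cd24a, -10.2 to 0.767 for St8sia6, -1.87 to -0.0137 for Hdac9 and -2.44 to -0.222 for Kcnc1, with Myb and St8sia6 turning without control replicate 1. The expanded share difference ranged from -23.0 to -14.1 and the odds ratio of Sox4 and Cd24a from 11.9 to 17.7.

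The share difference also turned for Myb with classes from UMIs (0.510), with each clonotype counted once (3.31), in the clusters led by Ccr7, Dapl1 and Lef1 (3.58) and in the cluster led by Ift80 (8.65), for Kcnc1 with classes from UMIs (0.0497) and each clonotype once (0.687), and for Cd24a in the clusters led by Ccr7 (0.330). The log2 fold change between groups turned in Cd8 T cells for Myb when pools were left out (-0.92 to 0.079, above 0 without control replicate 1), in the clusters led by Ccr7 (0.41) and in the cluster led by Ift80 (0.052), for St8sia6 when pools were left out (-3.47 to 0.95, above 0 without control replicate 1) and for Cd24a in the clusters led by Ccr7 (0.24). In Cd4 T cells it turned for Kcnc1 when pools were left out (-0.66 to 0.021, above 0 without Runx1::Runx1t1 replicate 1) and at resolution 1 (0.24), and for Myb when pools were left out (-0.38 to 0.036, above 0 without control replicate 1). In co-receptor-negative T cells it turned for Myb without TMM factors (0.033), when pools were left out (-0.36 to 0.40, above 0 without Runx1::Runx1t1 replicate 2, 0.10, and without control replicate 1), with classes from UMIs (0.40), at resolution 1 (0.047) and with doublets kept (0.11), for St8sia6 when pools were left out (-2.64 to 0.80, above 0 without control replicate 1) and with classes from UMIs (0.26), for Sox4 with classes from UMIs (0.14) and for Hdac9 with doublets kept (0.10). Nap1l3 in the Sox4 comparison turned with classes from UMIs (0.84).

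Samples of the groups share replicate numbers but nothing says that a number marks a shared litter or day. Deviations of same-numbered pools correlated at 0.286 in Cd8, 0.212 in Cd4 and 0.349 in co-receptor-negative T cells. With the replicate block, edgeR called Sox4 (adjusted p = 0.00929), Hdac9 (0.0436) and Kcnc1 (0.0295) in Cd8 T cells and Sox4 (0.0398) and St8sia6 (0.00169) in co-receptor-negative T cells, while Sox4 (0.0902) and Hdac9 (0.0715) did not pass in Cd4 T cells. The block changed no other call between groups for the 6 genes. Over all genes, it raised the number of calls in Cd8 and co-receptor-negative T cells and lowered it in Cd4 T cells, as given above.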

Other observations

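Relatives of the 6 genes were mostly not like them. Of 18 relatives, 9 could be tested in the Sox4 comparison, and Kcnn4, a calcium-activated potassium channel of T cells, was the 1 that rose (log2 fold change 0.48 ± 0.08). St8sia1, another sialyltransferase, was at 0.60 ± 0.18 (adjusted p = 0.0514, edgeR quasi-likelihood test) and Kcna3, the main voltage-gated potassium channel of T cells, at 0.29 ± 0.10. St8sia2, St8sia3, St8sia5 and Sox11 had 0 UMIs in Cd8 T cells.

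Outside T cells, the cluster led by Lyz2, F13a1 and Fn1, genes of monocytes, had Cd24a in 50.6% of its 528 cells, Sox4 in 20.5% and Hdac9 in 12.5%, at a median of 12262 UMIs per cell.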
